A study of Mus musculus with 11 samples.

Results

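Mouse embryonic stem (ES) cell lines that had a DNA methyltransferase put back were compared with the knockout lines they came from, by RNA-seq of polyA RNA. The comparison used every library that carries Dnmt3a1, Dnmt3a2 or Dnmt3b1 in a knockout background, 8 in all, and set them against the 2 parent libraries, so that 10 of the 11 libraries of the series entered it. The add-back libraries of the TKO background were 2 with Dnmt3a1, 2 with Dnmt3a2 and 1 with Dnmt3b1 (named TKO+Dnmt3a1 and so on), and those of the DKO background were 1 with each enzyme. The parents were TKO, which lacks Dnmt1, Dnmt3a and Dnmt3b, and DKO, which lacks Dnmt3a and Dnmt3b and keeps Dnmt1, with 1 library each. The remaining library was wild type (WT), which was not fitted and whose values are given for reference. All were J1 ES cells of strain 129S4/SvJae, kept on irradiated mouse embryonic fibroblasts as feeders in medium with serum and mLIF. By the labels each add-back line keeps the other deletions of its parent, and each genotype is known here from 1 or 2 libraries. Differences between clones therefore cannot be told apart from genotype. The labels do not say how the enzymes were expressed, or whether the paired libraries of a genotype came from 1 line or were grown separately.

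DNA methylation of CpG dinucleotides is laid down on unmodified DNA by the de novo enzymes Dnmt3a and Dnmt3b and copied at replication by Dnmt1. Dnmt3a1 is the long isoform of Dnmt3a and Dnmt3a2 the shorter one from an internal promoter, Dnmt3b1 is an active isoform of Dnmt3b, and Dnmt3l is a partner protein without activity of its own that stimulates them. In ES cells the mark lies, among other places, on promoters of germline genes and on imprinted regions, and ES cells without it remain viable. A de novo enzyme put back into TKO cells acts without Dnmt1, and one put back into DKO cells acts beside it. The question asked of the data was which transcripts differed between lines with and without a de novo enzyme, whichever enzyme and background were used.

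Levels were RPKM, reads scaled to transcript length and library size, as deposited, for 24016 genes. The depth, estimated from the spacing of the values of short transcripts, was 21.76 to 32.78 M reads per library. From 11805 to 12936 genes per library were at 1 RPKM or more, and 14229 genes that reached 1 RPKM in at least 1 library were tested. Differences are on the scale log2(RPKM + 0.5), add-back minus parent, averaged over the 3 enzymes with the family (TKO or DKO) as a term, which understates the change of low genes. A gene was called where the Benjamini-Hochberg adjusted p of limma over all tested genes was under 0.05. P-values therefore cover the scatter among these 10 libraries and their lines and nothing wider.

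The ES cell markers Pou5f1, Sox2, Nanog, Esrrb and Zfp42 were at 36.5 RPKM or more in every add-back library. Pou5f1, the ES cell factor Oct4, was at 454 to 716 RPKM in the add-back libraries and at 454 RPKM in TKO and 553 RPKM in DKO. Of the trophoblast transcription factors, Elf5 was at 0.19 RPKM or less in the add-back libraries, against 0.287 RPKM in TKO and 0 RPKM in DKO, and Cdx2 at 0.021 to 0.565 RPKM, against 0.142 RPKM in TKO and 0.078 RPKM in DKO. The epithelial keratin gene Krt8 was at 27.1 to 27.5 RPKM in both TKO+Dnmt3a2 libraries and TKO+Dnmt3b1 and at 5.53 to 12.4 RPKM in the other add-back libraries, against 11.6 RPKM in TKO and 7.30 RPKM in DKO.

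3 add-back libraries stood apart in their content of feeder and macrophage transcripts. The mean log2(RPKM + 0.5) of 32 fibroblast markers was 5.84 in TKO+Dnmt3b1 and 5.47 in DKO+Dnmt3b1, the highest of all libraries, and 2.05 in DKO+Dnmt3a2, the lowest. It lay between 3.53 and 4.23 in the other add-back libraries, at 3.8 in TKO and 4.12 in DKO and at 3.29 in WT. Macrophage markers were highest and lowest in the same 3 libraries, with means over 19 genes of 3.08 and 2.97 in the Dnmt3b1 libraries and of -0.45 in DKO+Dnmt3a2, against 0.95 in TKO and 1.58 in DKO. In DKO+Dnmt3a2 7 of these 19 genes, the defining markers Tyrobp and Emr1 among them, were listed at 0. The collagen gene Col1a1 was at 235 and 175 RPKM in TKO+Dnmt3b1 and DKO+Dnmt3b1 and at 10.9 RPKM in DKO+Dnmt3a2, against 38.1 RPKM in TKO and 83.1 RPKM in DKO. In RNA of whole cultures, fewer cells of a type and less RNA per cell cannot be told apart. The Dnmt3b1 libraries make up 1 of the 3 enzymes averaged, and results that rest on them are also given without them.

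Transcripts of the targeted genes followed the labels in part. Dnmt3a was at 39.4 and 34.2 RPKM in the 2 TKO+Dnmt3a1 libraries, 21.8 and 11.1 RPKM in TKO+Dnmt3a2 and 10.2 RPKM in TKO+Dnmt3b1, against 4.24 RPKM in TKO. It was at 17.6 RPKM in DKO+Dnmt3a1, 11.4 RPKM in DKO+Dnmt3a2 and 6.76 RPKM in DKO+Dnmt3b1, against 3.63 RPKM in DKO, and at 22.7 RPKM in WT. All 8 add-back libraries lay above both parents, those that received Dnmt3b1 included. Dnmt3a was called higher (log2 difference 1.75 ± 0.24 (SE), limma adjusted p = 0.0281). A gene-level value also counts exons outside a deletion and does not separate an introduced copy from the cell's own gene.

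Within each family Dnmt3b was highest in the line that received it, with 100.4 RPKM in TKO+Dnmt3b1 and 29.6 RPKM in DKO+Dnmt3b1. The Dnmt3a add-backs of the TKO family had 20.9 to 44.4 RPKM, below the 45.3 RPKM of TKO, and those of the DKO family had 13.3 and 14.7 RPKM, above the 5.68 RPKM of DKO. WT had 25.03 RPKM, so that the library labelled TKO, a line without Dnmt3b, was above WT at the level of the gene. Which exons these reads cover is not in the table, and this value therefore does not check the Dnmt3b label of the TKO family. Over the 3 enzymes Dnmt3b did not pass the test (0.74 ± 0.33 (SE), limma adjusted p = 0.188). Dnmt1 was at 7.27 to 12.4 RPKM in the TKO add-backs and 6.73 RPKM in TKO, and at 55.9 to 63.1 RPKM in the DKO add-backs and 74.5 RPKM in DKO, against 71.0 RPKM in WT. Its low level in the TKO family and high level in the DKO family go with the labels, and the add-back difference was 0.07 ± 0.20 (SE, limma adjusted p = 0.833). Dnmt3l was at 275 to 416 RPKM in the TKO add-backs and 391 RPKM in TKO, and at 187 to 252 RPKM in the DKO add-backs and 140 RPKM in DKO, against 97.0 RPKM in WT. Without the DKO library the difference of Dnmt3b was -0.03 and that of Dnmt3l -0.17, against 0.74 and 0.18 with it, so that their directions turn with 1 parent library. Of the 13 measured genes of the methylation machinery, Dnmt3a was the 1 called, beside 3.93% of all tested genes. Trim28, a co-repressor that recruits silencing enzymes, stood at 433 to 677 RPKM in the add-back libraries, against 366 RPKM in TKO and 305 RPKM in DKO, and missed the threshold (0.75 ± 0.18 (SE), limma adjusted p = 0.0535).

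Across all tested genes, 559 were called (3.93%), of which 159 were higher in the add-back lines (1.12%) and 400 lower (2.81%). Higher calls thus made up 28.4% of all calls, a share that was 39.7% after quantile normalization, 38.9% after median ratio scaling and 42.3% after the median of each chromosome was subtracted. The median difference of all genes was -0.01, and 48.4% of genes had a positive difference. The higher genes had a median log2 difference of 0.81 and the lower genes one of -0.86, and 52 and 126 of them passed a log2 difference of 1 in size. Of the called genes, 148 of the 159 higher ones were above their own parent in all 8 add-back libraries, as were 8.47% of all genes, and 392 of the 400 lower ones were below it in all 8, as were 12.3% of all genes. Add-back levels did not overlap those of both parents for 130 of the higher genes (4.71% of all genes) and 291 of the lower ones (6.21% of all genes). The genes were called on this same difference in these same libraries, so that these counts describe the calls and are no support for them.

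The number of calls depended on single libraries. It was 867 without TKO and 820 without the second TKO+Dnmt3a2 library. It was 67 without the first TKO+Dnmt3a2 library and 15 without the first TKO+Dnmt3a1 library. It was 3 without the second TKO+Dnmt3a1 library or without DKO+Dnmt3b1, and 2 without TKO+Dnmt3b1, DKO+Dnmt3a1 or DKO+Dnmt3a2. Without DKO no gene was called by limma, although 2303 genes were at an unadjusted p under 0.05, against 4012 with all libraries. Without both Dnmt3b1 libraries 3 genes were called, all lower, and without these and DKO+Dnmt3a2 none was, with 1731 genes at an unadjusted p under 0.05. Adjusted p-values of the called genes were close to the threshold, with 130 of the 559 under 0.04 and 44 under 0.03. Of the 48 called genes named here, none changed its sign in any of the 23 alternatives tried. They were called on this difference, and those named for size or p-value also had to share its sign in all own-parent differences. The unchanged sign was thus largely set by the selection and is no support for the calls. All 48 lost their call without DKO, and 36 kept it without TKO. The size of 15 of the 48 moved by over 1.5 times when a parent library was left out, 5 of them without TKO and 13 without DKO, and that of none did so without any 1 add-back library. The fit counts paired libraries of 1 genotype as separate. With each genotype taken as 1 line and counted once, 3 genes were called and 1 of the 48 kept its call. Of the 48, 10 were under 1 RPKM in both parents and 3 under 1 RPKM in every add-back library. The 3, and Sprr1a, Zfp352, Tdpoz4 and Gsto2 of the 10, were under 1 RPKM in WT as well. They entered the test through the arm where they were high and had to differ. The rest of the 10, such as Zscan4d at 5.94 RPKM, also reached 1 RPKM in WT, which the filter counted. The p-values of all 13 are given as a description. All adjusted p-values below stand under these limits.

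The strongest call was Dppa3 (Stella or PGC7), a maternal and germline factor that keeps the Dnmt1 cofactor Uhrf1 off chromatin. Dppa3 was at 37.2 and 39.0 RPKM in TKO+Dnmt3a1, 38.1 and 45.3 RPKM in TKO+Dnmt3a2 and 29.6 RPKM in TKO+Dnmt3b1, against 118 RPKM in TKO. It was at 20.1, 27.4 and 13.6 RPKM in DKO with Dnmt3a1, Dnmt3a2 and Dnmt3b1, against 60.2 RPKM in DKO, and at 11.7 RPKM in WT. Each add-back library lay below both parents and above WT, with Dnmt3b1 the lowest in each family. The log2 difference was -1.66 ± 0.12 (SE, limma adjusted p = 0.00337). It was -1.70 in the TKO family and -1.60 in the DKO family, a difference between families of -0.12 ± 0.25 (SE). With each library left out in turn it stayed between -1.72 and -1.60 and was called in 9 of 10 fits, the exception being the fit without DKO (limma adjusted p = 0.0502). Without both Dnmt3b1 libraries it was -1.46 (limma adjusted p = 0.0221). One further gene was called in 9 of 10 such fits, the X-linked 1700080O16Rik, which was picked out after its values were seen. 1700080O16Rik was at 0.179 to 0.378 RPKM in the TKO add-backs, against 5.74 RPKM in TKO, and at 0, 0 and 0.021 RPKM in the DKO add-backs, against 2.31 RPKM in DKO, and listed at 0 in WT (log2 difference -2.75 ± 0.21 (SE), limma adjusted p = 0.00337). This gene was under 1 RPKM in every add-back library and in WT, and entered the test through the parents alone. It had to differ, so that its p-value and its calls are a description. No role is given here for this clone-named gene.

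**Figure D1:**
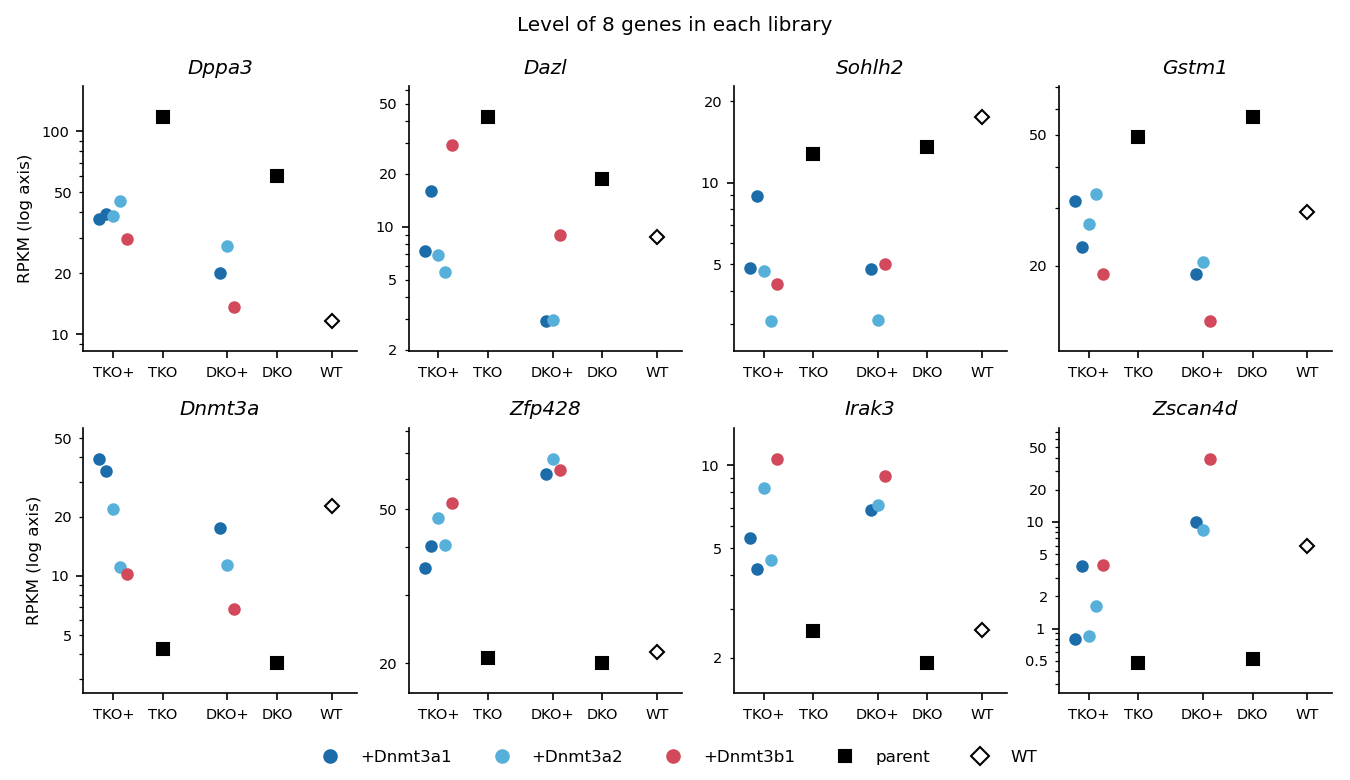
RPKM of 8 genes in each library, on log axes. Coloured points are the 5 TKO and 3 DKO add-back libraries by enzyme, each left of its parent (black squares), and the open diamond is WT. Dppa3, Sohlh2 and Gstm1 lie below both parents in all 8 add-back libraries, Dazl overlaps DKO through TKO+Dnmt3b1 at 29.0 RPKM, and Dnmt3a, Zfp428, Irak3 and Zscan4d lie above both parents.

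Germline genes whose promoters are known to carry methylation in ES cells did not move as a group. Of 44 listed genes 37 were tested, 35 of them at 1 RPKM or more in both arms and 2 in the add-back arm alone. Of the 37 genes 2 were called lower and 0 higher, where 2.81% and 1.12% of all tested genes were. A positive difference was held by 15 of 37, and the median was -0.14 beside -0.01 for all genes, or 0.07 without DKO. The 2 called genes were Dazl, an RNA-binding translational regulator of germ cells, and Sohlh2, a basic helix-loop-helix factor of early gonocyte differentiation. The median over the list was 0.38 above TKO in the second TKO+Dnmt3a1 library and 0.29 below it in the first. Libraries of 1 genotype thus fell on opposite sides of their parent. In the 3 DKO add-back libraries the medians were -0.40, -0.57 and -0.31. Asz1, a piRNA pathway protein, was below its own parent in all 8 libraries without passing the test (-1.13 ± 0.35 (SE), limma adjusted p = 0.0887). Tdrd1, another piRNA pathway protein, was above it in all 8 and did not pass either (0.72 ± 0.28 (SE), limma adjusted p = 0.143).

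Dazl was at 7.30 and 15.9 RPKM in TKO+Dnmt3a1, 6.87 and 5.55 RPKM in TKO+Dnmt3a2 and 29.0 RPKM in TKO+Dnmt3b1, against 42.2 RPKM in TKO. In the DKO family it was at 2.92 RPKM with Dnmt3a1, 2.96 RPKM with Dnmt3a2 and 9.01 RPKM with Dnmt3b1, against 18.7 RPKM in DKO, and it was at 8.73 RPKM in WT. Each add-back library lay below its own parent, and the Dnmt3b1 libraries lay closest to it in both families, with differences of -0.53 and -1.01 against -1.38 to -2.82 for the Dnmt3a libraries. The log2 difference over the 3 enzymes was -1.85 ± 0.27 (SE, limma adjusted p = 0.029), and -2.38 without both Dnmt3b1 libraries (limma adjusted p = 0.0798). Sohlh2 was at 3.10 to 8.92 RPKM (median 4.75 RPKM) in the add-back libraries, against 12.7 RPKM in TKO and 13.6 RPKM in DKO, and at 17.6 RPKM in WT (-1.43 ± 0.24 (SE), limma adjusted p = 0.0363). All 8 add-back libraries were below both parents, and the highest, the second TKO+Dnmt3a1 library, was nearest to its parent.

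Promoter sequences of 4 called genes are given because the enzymes act on CpG dinucleotides, with 1 gene each from the germline, X-linked and 2-cell lists and 1 further rise. Each is the RefSeq window from 250 bases before to 50 bases after the gene's start, on build GRCm38.p6, read on the gene's strand, with every CG in capitals. CG reads the same on both strands, and a CGCG run counts as 2. Of 27025 such windows of 300 bases, 94.2% hold at least 1 CG, with a median of 7 and quartiles of 3 and 21. Dazl (chr17:50293571-50293870, minus strand) has 28, Xlr5a (chrX:73117653-73117952, minus strand) 16, Zfp428 (chr7:24506837-24507136, plus strand) 19 and Zscan4d (chr7:11166099-11166398, minus strand) 3. Xlr5a is not typical of its list, where the median over the 23 genes with a promoter in the table was 7 with an upper quartile of 8. The count is a description of the window, and methylation was not among the data used here.
Dazl: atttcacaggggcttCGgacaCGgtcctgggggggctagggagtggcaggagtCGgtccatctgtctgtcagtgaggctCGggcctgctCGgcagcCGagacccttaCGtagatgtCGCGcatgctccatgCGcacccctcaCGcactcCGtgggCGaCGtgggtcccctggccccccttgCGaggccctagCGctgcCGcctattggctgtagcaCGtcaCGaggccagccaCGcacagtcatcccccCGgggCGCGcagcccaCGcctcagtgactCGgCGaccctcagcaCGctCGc
Xlr5a: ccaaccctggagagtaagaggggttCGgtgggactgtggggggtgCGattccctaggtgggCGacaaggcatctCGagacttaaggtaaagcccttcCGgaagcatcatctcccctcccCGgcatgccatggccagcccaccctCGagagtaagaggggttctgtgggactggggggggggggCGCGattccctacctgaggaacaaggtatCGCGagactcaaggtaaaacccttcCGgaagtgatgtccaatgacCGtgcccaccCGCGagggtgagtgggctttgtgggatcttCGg
Zfp428: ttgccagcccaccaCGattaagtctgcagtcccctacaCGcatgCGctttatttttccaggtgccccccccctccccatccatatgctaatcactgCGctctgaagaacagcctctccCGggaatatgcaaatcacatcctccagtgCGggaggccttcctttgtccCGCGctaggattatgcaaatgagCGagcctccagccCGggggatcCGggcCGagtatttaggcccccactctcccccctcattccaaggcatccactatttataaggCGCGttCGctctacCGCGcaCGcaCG
Zscan4d: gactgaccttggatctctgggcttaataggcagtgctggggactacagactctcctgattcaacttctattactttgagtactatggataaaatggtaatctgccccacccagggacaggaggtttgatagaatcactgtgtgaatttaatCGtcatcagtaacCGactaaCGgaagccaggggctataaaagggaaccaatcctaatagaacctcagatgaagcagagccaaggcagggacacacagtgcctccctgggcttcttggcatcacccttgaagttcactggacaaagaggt

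Genes of the X-linked Rhox, Xlr and Mage families, which are expressed in germ cells and known to be methylated in somatic cells, were lower. Of 50 listed genes 25 were tested, 18 of them at 1 RPKM or more in both arms, 6 in the parents alone and 1 in the add-back arm alone. A gene that entered only through the parents had to differ, so that the counts over the list are a description and no support. Of the 25 tested genes 4 were called lower and 0 higher, the median was -1.38, and 17 were below their own parent in all 8 libraries. Over all tested genes 2.81% were called lower, and 12.3% were below the own parent in all 8. The families of lines differed in level. The mean log2(RPKM + 0.5) over the 25 genes was 0.89 to 1.57 in the TKO add-backs and 1.93 in TKO, and -0.28 to 0.13 in the DKO add-backs and 2.03 in DKO, against -0.33 in WT. In the DKO add-backs all 25 genes were below DKO in each of the 3 libraries, with medians of -2.26, -2.27 and -1.92, and 10, 12 and 3 of them were listed at 0. In the TKO add-backs 19 to 25 genes were below TKO, with medians of -0.44 to -1.08, and none was listed at 0. The list's median was -0.57 without DKO and -2.15 without TKO. Whether add-back differed between families was tested gene by gene and gave no call, as described further on.

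Xlr5a, of a family related to the synaptonemal complex protein Sycp3, was at 0.377 to 1.59 RPKM in the TKO add-backs, against 3.15 RPKM in TKO, and at 0, 0 and 0.037 RPKM in the DKO add-backs, against 3.41 RPKM in DKO (-2.08 ± 0.40 (SE), limma adjusted p = 0.0419). Without DKO the difference of Xlr5a was -1.30 (limma adjusted p = 0.213), and WT was listed at 0 for it. Magea5, a cancer-testis antigen gene, was at 0.34 to 1.02 RPKM in the TKO add-backs, against 2.10 RPKM in TKO, and at 0, 0 and 0.019 RPKM in the DKO add-backs, against 1.46 RPKM in DKO (-1.57 ± 0.28 (SE), limma adjusted p = 0.0387). In both genes the DKO add-backs were at or next to 0, as was WT, and the TKO add-backs kept an intermediate level. Rhox2e, a reproductive homeobox gene, and Magea8 showed the same order of levels, with differences of -1.43 ± 0.31 and -1.29 ± 0.29 (SE, limma adjusted p = 0.0466 and 0.0491). Both were under 1 RPKM in every add-back library and entered the test through the parents, and Rhox2e was at -0.87 without DKO. Xlr3c was at 2.58 to 6.5 RPKM in the TKO add-backs, against 9.87 RPKM in TKO, and at 0.154 to 0.498 RPKM in the DKO add-backs, against 21.5 RPKM in DKO, and did not pass the test (-2.72 ± 0.72 (SE), limma adjusted p = 0.0627). Close copies within these families share reads, so that single values are uncertain.

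Genes of the 2-cell-like state, a rare state of ES cells that resembles the 2-cell embryo, were higher. Of 32 listed genes 26 were in the table and 21 were tested, of which 16 reached 1 RPKM in the add-back arm and in neither parent, and 5 in both arms. The filter also counted WT, where some of the 16, such as Zscan4d at 5.94 RPKM, reached 1 RPKM. The others of the 16 entered through the add-back arm alone, where they were high. The counts over the list are therefore again a description and no support. Of the 21 tested genes 8 were called higher and 0 lower, the median was 1.54, and 13 were above their own parent in all 8 libraries. Over all tested genes 1.12% were called higher, and 8.47% were above the own parent in all 8. The mean log2(RPKM + 0.5) over the 21 genes was 0.31 and 1.21 for the 2 TKO+Dnmt3a1 libraries, 0.41 and 0.65 for those of TKO+Dnmt3a2, and 1.61 for TKO+Dnmt3b1, against 0.25 for TKO. It was 1.69, 1.5 and 3.48 in DKO with Dnmt3a1, Dnmt3a2 and Dnmt3b1, against 0.12 in DKO, and 1.49 in WT. The Dnmt3b1 library was thus the highest of each family, and these are the same libraries that were highest in fibroblast and macrophage markers, whose part in the result was not tested. All 21 genes were above DKO in each DKO add-back library, with medians of 1.16, 1.08 and 3.43 for Dnmt3a1, Dnmt3a2 and Dnmt3b1. In the TKO add-backs 14 to 20 genes were above TKO, with medians of 0.17 to 1.62. Without both Dnmt3b1 libraries the list's median was 0.91 and none of its genes was called. Without DKO the median was 0.87, without TKO 1.87.

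Zscan4d, of a zinc finger family linked to telomere maintenance, was at 0.799 and 3.86 RPKM in TKO+Dnmt3a1, 0.85 and 1.62 RPKM in TKO+Dnmt3a2 and 3.95 RPKM in TKO+Dnmt3b1, against 0.478 RPKM in TKO. It was at 9.97, 8.48 and 39.3 RPKM in DKO with Dnmt3a1, Dnmt3a2 and Dnmt3b1, against 0.523 RPKM in DKO, and at 5.94 RPKM in WT. All 8 libraries were above both parents, and the 2 TKO+Dnmt3a1 libraries differed several-fold from each other. The log2 difference was 2.64 ± 0.58 (SE, limma adjusted p = 0.0473), and 2.04 without both Dnmt3b1 libraries (limma adjusted p = 0.16). Zscan4a and Zscan4b rose by 2.39 ± 0.55 and 1.72 ± 0.39, and the deubiquitinase genes Usp17lc and Usp17le by 1.78 ± 0.37 and 1.55 ± 0.35 (log2, SE, limma adjusted p = 0.0495, 0.0486, 0.0449 and 0.0486). Without DKO the differences of Zscan4d, Zscan4a, Zscan4b and Usp17lc were 1.47, 1.11, 0.99 and 1.09, and that of Zscan4a was 3.8 without TKO. Zfp352, a zinc finger gene of the 2-cell embryo, was at 0.156 to 5.62 RPKM in the add-back libraries, against 0.067 RPKM in TKO and 0.074 RPKM in DKO (1.39 ± 0.30 (SE), limma adjusted p = 0.0454). Pramef25, of the Prame family, was at 0.751 to 4.71 RPKM, against 0.274 RPKM in TKO and 0.387 RPKM in DKO (1.39 ± 0.22 (SE), limma adjusted p = 0.0333). Tdpoz4 rose by 1.54 ± 0.35 (log2, SE, limma adjusted p = 0.0491) or 0.89 without DKO, and was below TKO in 1 library, the first TKO+Dnmt3a1 one. All 8 called genes of the list were under 1 RPKM in both parents. Zfp352 and Tdpoz4, at 0.336 and 0.41 RPKM in WT, entered the test through the add-back arm alone and had to differ. The others also reached 1 RPKM in WT, and the p-values of all 8 are given as a description. Dux, the transcription factor that drives the state, was at 1.01 RPKM in DKO+Dnmt3b1 and at 0.109 to 0.333 RPKM in the other add-back libraries, against 0.188 RPKM in TKO and 0.132 RPKM in DKO, and did not pass the test (0.32 ± 0.24 (SE), limma adjusted p = 0.41). Zscan4, Usp17l and Tdpoz genes are close copies that share reads.

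**Figure D2:**
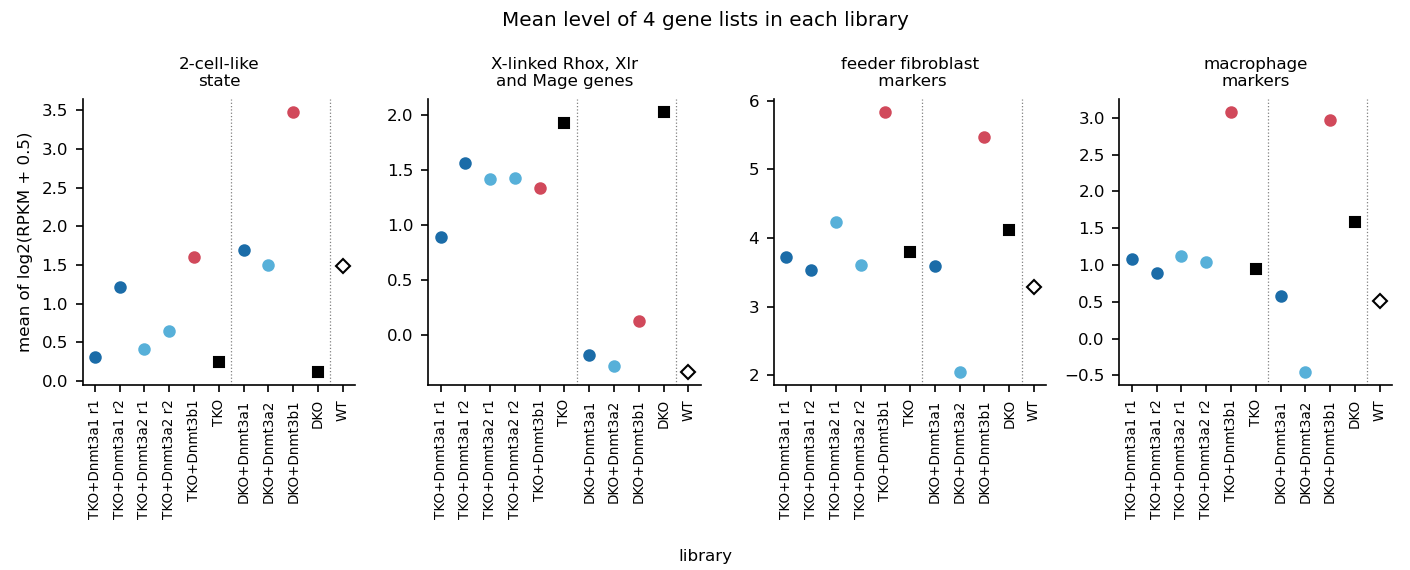
Mean of log2(RPKM + 0.5) over the tested members of 4 gene lists in each library, TKO family left of DKO family and add-back libraries (dark blue Dnmt3a1, light blue Dnmt3a2, red Dnmt3b1) left of their parent (black square), with WT (open diamond) last. 2-cell-like genes are highest in DKO+Dnmt3b1 at 3.48, X-linked genes lie below the parent in every add-back library, and fibroblast and macrophage markers are highest in the 2 Dnmt3b1 libraries at 5.84 and 5.47 and at 3.08 and 2.97.

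Among the other named rises, Zfp428, a zinc finger gene, had the smallest adjusted p. It was at 35.2 to 51.9 RPKM in the TKO add-backs, against 20.7 RPKM in TKO, and at 61.9 to 67.7 RPKM in the DKO add-backs, against 20.1 RPKM in DKO, with WT at 21.5 RPKM. The add-back libraries were all above both parents and above WT (1.34 ± 0.16 (SE), limma adjusted p = 0.0244), and the difference was 1.28 without both Dnmt3b1 libraries (limma adjusted p = 0.0871). Smyd2, a lysine methyltransferase, was at 24.1 to 32.8 RPKM in the add-back libraries (median 27.9 RPKM), against 14.5 RPKM in TKO and 13.3 RPKM in DKO, with 19.97 RPKM in WT (0.96 ± 0.13 (SE), limma adjusted p = 0.0279). Its size was between 0.93 and 0.99 with each library left out in turn, against 1.05 to 1.65 for Zfp428. Of these 10 fits Smyd2 was called in 3 and Zfp428 in 4, and neither was called without DKO. Timm21, a component of mitochondrial protein import, was at 13.03 to 15.6 RPKM, against 7.76 RPKM in TKO and 4.84 RPKM in DKO (1.10 ± 0.15 (SE), limma adjusted p = 0.0279), with a range of 0.83 to 1.41 over the same fits. Stmn3, a microtubule-destabilising stathmin, was at 2.07 to 5.33 RPKM, against 0.908 RPKM in TKO and 1.72 RPKM in DKO (1.19 ± 0.15 (SE), limma adjusted p = 0.027). In these 3 genes every add-back library was above both parents.

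Irak3, an inhibitor of Toll-like receptor signalling, was at 4.20 to 10.6 RPKM in the TKO add-backs, against 2.49 RPKM in TKO, and at 6.86 to 9.17 RPKM in the DKO add-backs, against 1.92 RPKM in DKO (1.49 ± 0.24 (SE), limma adjusted p = 0.0333). Ripk3, the kinase of necroptosis, was at 8.62 to 25.6 RPKM in the TKO add-backs, against 5.86 RPKM in TKO, and at 5.96 to 17.8 RPKM in the DKO add-backs, against 3.42 RPKM in DKO (1.37 ± 0.21 (SE), limma adjusted p = 0.0333). Both were highest in the Dnmt3b1 library of each family, which was also the highest in fibroblast and macrophage markers, and without these libraries the differences were 1.28 and 0.98 (limma adjusted p = 0.125 and 0.133). Cntfr, a cytokine receptor subunit that signals with Lifr and Il6st, was at 4.30 to 10.1 RPKM in the TKO add-backs, against 3.75 RPKM in TKO, and at 12.4 to 14.6 RPKM in the DKO add-backs, against 2.81 RPKM in DKO (1.35 ± 0.30 (SE), limma adjusted p = 0.0473). Its difference was 2.04 without TKO and 0.73 without DKO. Sprr1a, a cornified envelope protein, was at 7.33 and 3.83 RPKM in TKO+Dnmt3b1 and DKO+Dnmt3b1 and at 0.22 to 1.43 RPKM in the other add-back libraries, against 0.338 RPKM in TKO and 0.085 RPKM in DKO. Its difference of 1.52 ± 0.29 (SE, limma adjusted p = 0.0419) was 0.76 without the Dnmt3b1 libraries (limma adjusted p = 0.261), and both parents were under 1 RPKM.

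**Figure D3:**
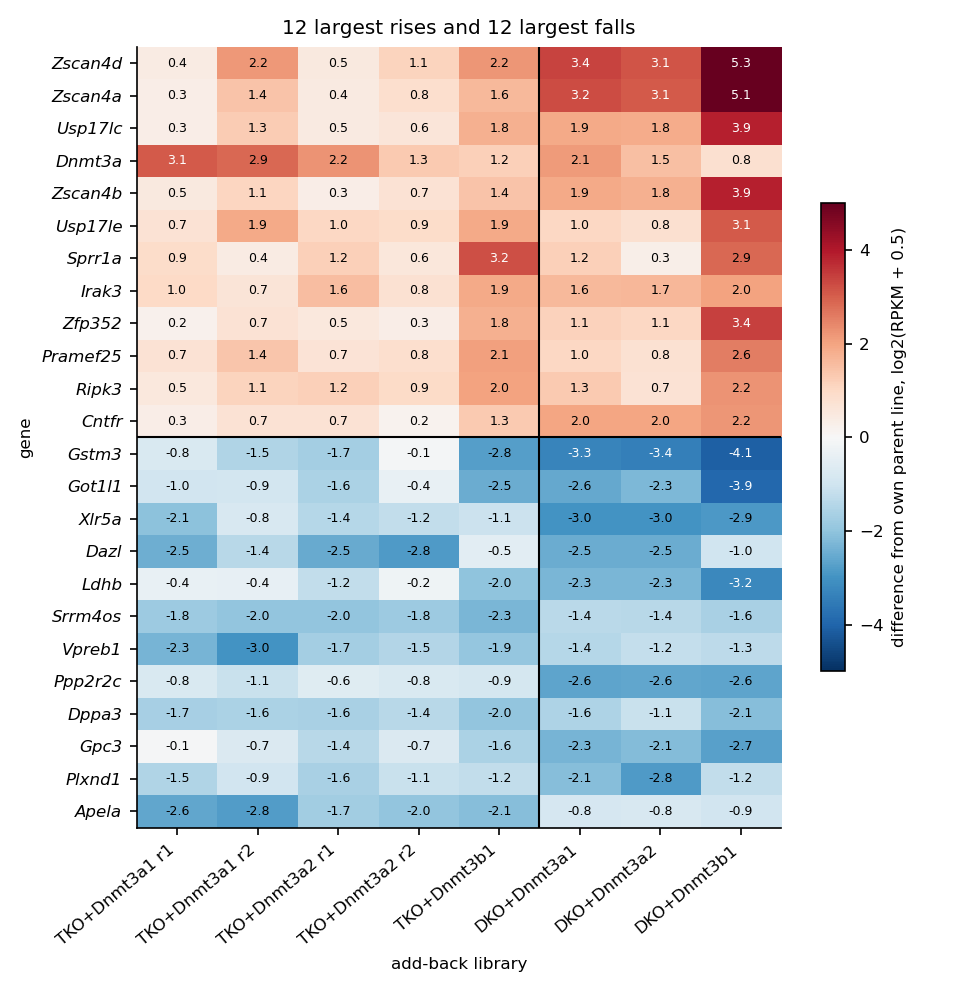
Difference from the own parent line in log2(RPKM + 0.5) for the 12 largest rises and 12 largest falls named by the rule, one column per add-back library, with red higher and blue lower than the parent. Zscan4, Usp17l and Zfp352 rises are largest in DKO+Dnmt3b1, Dppa3 and Srrm4os are below the parent by over 1 in all 8 libraries (from -1.12 to -2.11 and from -1.36 to -2.30), and Ppp2r2c is further below the parent in the DKO libraries than in the TKO libraries, a difference that limma did not call.

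Glutathione transferases and peroxidases, which conjugate glutathione or use it to reduce peroxides, held calls in both directions. Of 29 tested genes 4 were called lower and 2 higher, where 2.81% and 1.12% of all tested genes were. A negative difference was held by 23, and the median was -0.36, or -0.06 without DKO. Gstm1, a glutathione transferase, was at 18.9 to 33.0 RPKM in the TKO add-backs, against 49.4 RPKM in TKO, and at 13.6 to 20.6 RPKM in the DKO add-backs, against 56.8 RPKM in DKO, with 29.1 RPKM in WT (-1.31 ± 0.18 (SE), limma adjusted p = 0.0279). Gstm3 was at 0.799 to 7.72 RPKM in the TKO add-backs, against 8.38 RPKM in TKO, and at 0.682 to 1.53 RPKM in the DKO add-backs, against 19.3 RPKM in DKO (-2.52 ± 0.53 (SE), limma adjusted p = 0.0449, or -1.54 without DKO). Gstm2 fell by 0.93 and Gstk1 by 0.95 on the log2 scale (limma adjusted p = 0.0401 and 0.0387). All 4 were below both parents in each add-back library, and Gstm genes are close copies that share reads. All 6 genes lost their call without the Dnmt3b1 libraries, as did 47 of the 48 called genes named here. The differences of Gstm1, Gstm3, Gstm2 and Gstk1 were then -1.11, -2.09, -0.91 and -0.97, and the 2 rises shrank. Gsto1, an omega-class transferase, was at 173 and 129 RPKM in TKO+Dnmt3b1 and DKO+Dnmt3b1 and at 23.6 to 54.3 RPKM in the other add-back libraries, against 27.7 RPKM in TKO and 25.7 RPKM in DKO. Its difference of 1.09 ± 0.20 (SE, limma adjusted p = 0.0401) was 0.40 without the Dnmt3b1 libraries (limma adjusted p = 0.378), and that of Gsto2, under 1 RPKM in both parents, was 1.04 with them and 0.29 without (limma adjusted p = 0.0443 and 0.565).

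Genes of glycolysis and the hypoxia response had differences below 0 in 32 of 33 tested genes, with a median of -0.47. Of the 33, 1 was called, Ldhb, beside 3.93% of all tested genes. The libraries did not move alike. Above the own parent were 24, 30, 5, 23 and 3 of the 33 genes in the TKO add-backs (both TKO+Dnmt3a1, both TKO+Dnmt3a2 and TKO+Dnmt3b1) and 1, 4 and 1 in the DKO add-backs. Without DKO the median was -0.16, with 12 of 33 positive. Ldhb, a lactate dehydrogenase subunit, was at 38.9 to 135 RPKM in the TKO add-backs, against 159 RPKM in TKO, and at 47.5 to 91.5 RPKM in the DKO add-backs, against 447 RPKM in DKO, with 253 RPKM in WT (-1.77 ± 0.35 (SE), limma adjusted p = 0.0419, or -1.02 without DKO). Acsl1, which activates long-chain fatty acids, was at 6.4 to 8.78 RPKM in the TKO add-backs, against 17.0 RPKM in TKO, and at 9.09 to 9.74 RPKM in the DKO add-backs, against 20.3 RPKM in DKO (-1.08 ± 0.13 (SE), limma adjusted p = 0.0244). Got1l1, an aspartate aminotransferase relative, was at 3.61 to 16.9 RPKM in the TKO add-backs, against 22.4 RPKM in TKO, and at 2.42 to 8.65 RPKM in the DKO add-backs, against 43.3 RPKM in DKO (-2.16 ± 0.35 (SE), limma adjusted p = 0.0351).

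Further named falls included Hgsnat, Snx25 and Srrm4os. Hgsnat, a lysosomal enzyme of heparan sulfate breakdown, was at 6.61 to 8.15 RPKM in the TKO add-backs, against 18.3 RPKM in TKO, and at 3.25 to 4.16 RPKM in the DKO add-backs, against 11.2 RPKM in DKO (-1.38 ± 0.14 (SE), limma adjusted p = 0.0232). Snx25, a sorting nexin, was at 4.29 to 6.35 RPKM in the add-back libraries (median 5.61 RPKM), against 12.98 RPKM in TKO and 13.1 RPKM in DKO, with 6.81 RPKM in WT (-1.15 ± 0.13 (SE), limma adjusted p = 0.0244). Every add-back library was below both parents for both genes. Srrm4os, a transcript antisense to Srrm4 whose reads cannot be told from those of its partner in this kit, was at 0.036 to 0.539 RPKM, against 3.16 RPKM in TKO and 1.15 RPKM in DKO (-1.75 ± 0.20 (SE), limma adjusted p = 0.0244), and entered the test through the parents alone. Apela, a peptide ligand of the apelin receptor, was at 5.32 to 11.6 RPKM in the TKO add-backs, against 39.3 RPKM in TKO, and at 33.6 to 37.2 RPKM in the DKO add-backs, against 64.9 RPKM in DKO (-1.58 ± 0.29 (SE), limma adjusted p = 0.0401, or -0.85 without TKO). Ppp2r2c, a regulatory subunit of protein phosphatase 2A, was at 7.53 to 10.9 RPKM in the TKO add-backs, against 17.0 RPKM in TKO, and at 3.08 to 3.21 RPKM in the DKO add-backs, against 21.8 RPKM in DKO (-1.68 ± 0.33 (SE), limma adjusted p = 0.0419). Its difference was -2.61 without TKO and -0.83 without DKO. Gpc3, a glypican, Plxnd1, a semaphorin receptor, and Vpreb1, a surrogate light chain component, fell by 1.65, 1.62 and 1.71 on the log2 scale (limma adjusted p = 0.0443, 0.0419 and 0.0333), and Gpc3 was at -0.98 without DKO.

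Imprinted genes, expressed from 1 parental allele, held 2 calls among 46 tested genes, both higher, beside 3.93% called over all tested genes. Their median was 0.08, or -0.16 without both Dnmt3b1 libraries and -0.07 without DKO. Nnat, a paternally expressed proteolipid gene, was at 8.54 to 19.2 RPKM in the TKO add-backs, against 5.09 RPKM in TKO, and at 10.3 to 13.9 RPKM in the DKO add-backs, against 6.62 RPKM in DKO, with 9.39 RPKM in WT (1.09 ± 0.21 (SE), limma adjusted p = 0.0419). Mcts2, an imprinted retrogene, was at 22.2 to 28.6 RPKM in the TKO add-backs, against 15.9 RPKM in TKO, and at 22.2 to 30.3 RPKM in the DKO add-backs, against 10.2 RPKM in DKO, with 15.9 RPKM in WT (0.94 ± 0.16 (SE), limma adjusted p = 0.0373, or 0.61 without DKO). All 8 add-back libraries were above both parents for both genes. Nnat and Mcts2 lie within introns of Blcap and H13, which were not called (0.32 ± 0.13 and 0.15 ± 0.23 (SE), limma adjusted p = 0.155 and 0.69). Peg3 and Nap1l5 were below their own parent in all 8 libraries and did not pass the test (-0.65 ± 0.18 and -1.10 ± 0.29 (SE), limma adjusted p = 0.0715 and 0.0642).

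Calls among pluripotency and lineage genes are set beside the 3.93% of all tested genes that were called. None of 28 naive pluripotency genes was called, with 15 positive and a median of 0.07, or -0.06 without DKO. Esrrb, a naive pluripotency factor, was at 56.4 to 123 RPKM in the add-back libraries, against 114 RPKM in TKO and 138 RPKM in DKO, and below its own parent in all 8, just outside the threshold (-0.45 ± 0.10 (SE), limma adjusted p = 0.0513). Its lowest values were those of the 2 Dnmt3b1 libraries. Among 22 formative and primed epiblast genes 1 was called, Sox3, and it was lower. Sox3, an X-linked factor of epiblast and neural progenitors, was at 2.25 to 4.07 RPKM in the add-back libraries, against 7.64 RPKM in TKO and 4.89 RPKM in DKO (-0.89 ± 0.20 (SE), limma adjusted p = 0.0482, or -0.58 without TKO). It is also the 1 call among 12 neural ectoderm genes, and no gene was called among 19 endoderm, 14 mesoderm and 17 trophoblast genes. The medians of these 5 lists were 0.28, -0.14, -0.18, 0.11 and -0.08. Without both Dnmt3b1 libraries the endoderm median was -0.59 with 0 of 19 genes positive, while it was 0.42 above TKO in TKO+Dnmt3b1 and 0.75 above DKO in DKO+Dnmt3b1. The mesoderm median was -0.09 without these libraries, the neural median 0.24 without TKO and the trophoblast median 0.03 without DKO.

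The remaining lists are read against the same 3.93%. Of 33 Polycomb subunits 1 was called, E130012A19Rik, known as Epop, which links the PRC2 complex to elongin, at 120 to 258 RPKM in the TKO add-backs, against 87.3 RPKM in TKO, and at 112 to 149 RPKM in the DKO add-backs, against 42.2 RPKM in DKO (1.27 ± 0.26 (SE), limma adjusted p = 0.0421). Of 23 Tet oxidases, base excision enzymes and methyl-CpG readers 1 was called, the DNA glycosylase gene Neil3, at 2.33 to 5.36 RPKM in the add-back libraries, against 6.25 RPKM in TKO and 10.6 RPKM in DKO (-1.07 ± 0.22 (SE), limma adjusted p = 0.0443). Of 26 p53 targets 2 were called, both lower, Trp53inp1 by 0.72 ± 0.15 and the RNA-binding protein gene Zmat3 by 0.58 ± 0.11 on the log2 scale (SE, limma adjusted p = 0.0449 and 0.0419). None of 36 interferon response genes was called, with a median of 0.36. That median was 0.08 without both Dnmt3b1 libraries, and the own-parent medians of the list ran from -0.59 in DKO+Dnmt3a2 to 0.77 in the first TKO+Dnmt3a2 library. None of the 32 fibroblast and 19 macrophage markers was called, with medians of 0.21 and 0.14 that were -0.61 and -0.63 without both Dnmt3b1 libraries. Of 9 tested Dppa and Pramel genes 1 was called, Dppa3, with a median of -0.54 that was 0.27 without TKO.

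**Figure D4:**
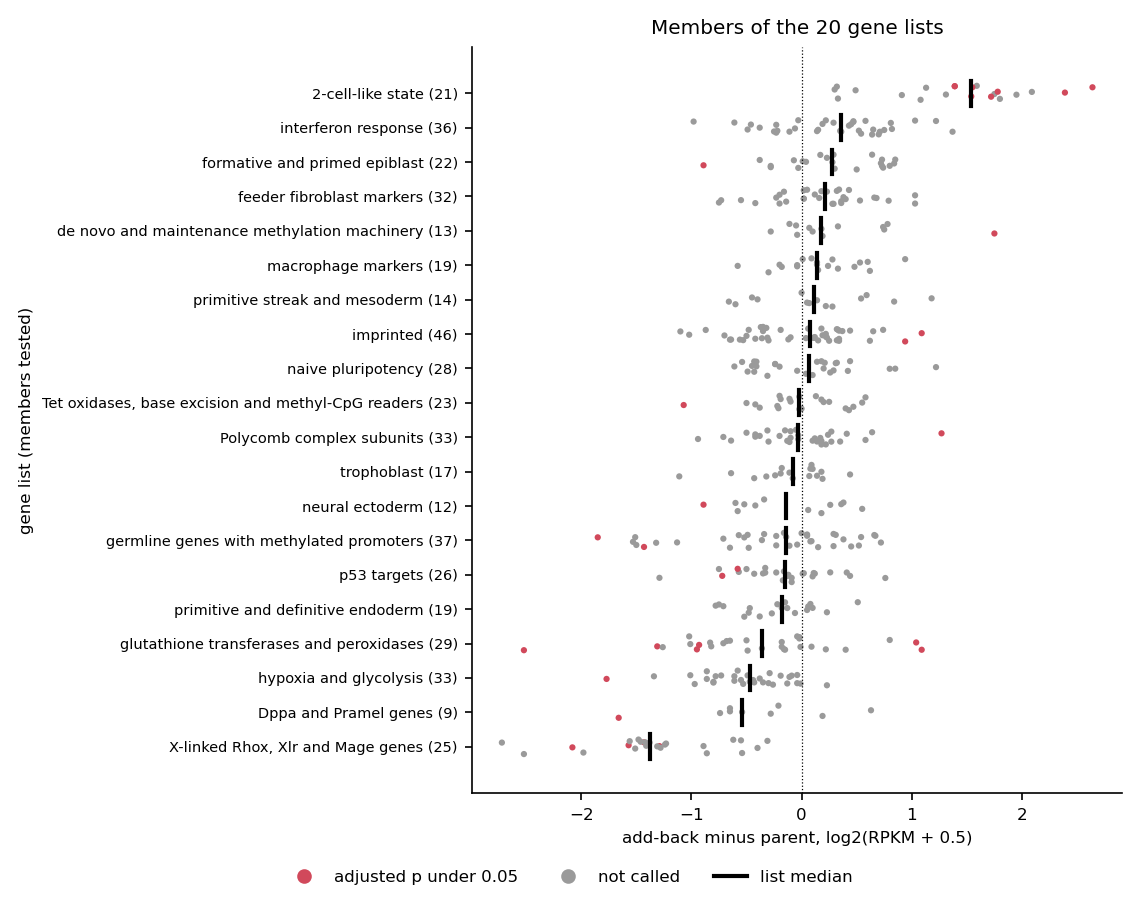
Log2 difference, add-back minus parent, of each tested member of the 20 gene lists (points, red where the limma adjusted p was under 0.05), with the list's median as a black bar and the number of members tested in brackets. The 2-cell-like list has the highest median at 1.54 and the X-linked list the lowest at -1.38, and both hold members that entered the test through 1 arm alone.

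Whether an enzyme had the same effect with and without Dnmt1 was asked with an interaction term, the add-back difference in the TKO family minus that in the DKO family. No gene was called by limma (0% of 14229), with 2079 genes at an unadjusted p under 0.05 and a smallest adjusted p of 0.175. Without a filter on low values limma called 38 genes. The largest uncalled differences are given as values. Spink3, a serine protease inhibitor, was at 0.864 to 4.58 RPKM in the TKO add-backs, against 3.83 RPKM in TKO, and at 15.7 to 23.4 RPKM in the DKO add-backs, against 3.3 RPKM in DKO (interaction -2.88 ± 0.57 (SE), limma adjusted p = 0.195). Gbx2, a homeobox factor of the naive state, was at 5.93 to 22.3 RPKM in the TKO add-backs, against 11 RPKM in TKO, and at 39.7 to 61.3 RPKM in the DKO add-backs, against 7.61 RPKM in DKO (interaction -2.68 ± 0.70 (SE), limma adjusted p = 0.224). In both genes the DKO add-backs lay above DKO and all other libraries shown, and the TKO add-backs spread around TKO. Zscan4a and Zscan4c had interactions of -2.69 ± 0.65 and -2.69 ± 0.68 (SE, limma adjusted p = 0.212 and 0.221).

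In the other direction, Cox7b2, a testis-type cytochrome c oxidase subunit, was at 5.68 to 12.6 RPKM in the TKO add-backs, against 3.39 RPKM in TKO, and at 0.883 to 4.42 RPKM in the DKO add-backs, against 12.3 RPKM in DKO (interaction 3.86 ± 0.88 (SE), limma adjusted p = 0.203). Efhc2, an X-linked EF-hand protein gene, was at 3.07 to 7.97 RPKM in the TKO add-backs, against 3.86 RPKM in TKO, and at 0.939 to 2.80 RPKM in the DKO add-backs, against 17.0 RPKM in DKO (interaction 3.55 ± 0.80 (SE), limma adjusted p = 0.201). Xlr3c and Xlr3a had interactions of 3.93 ± 0.58 and 3.77 ± 0.90 (SE, limma adjusted p = 0.175 and 0.209). For all 4 genes the parent DKO was above every DKO add-back, while the TKO add-backs lay on both sides of TKO for Efhc2, above it for Cox7b2 and below it for the Xlr3 genes. With 1 library per parent, each of these values rests on 1 measurement of TKO and 1 of DKO.

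The lower calls were spread unevenly over the chromosomes. On chromosome 8 76 of 776 tested genes were called lower (9.79%) and 1 higher, on chromosome 6 54 of 653 (8.27%) and 1, on chromosome 12 29 of 502 (5.78%) and 2, and on chromosome 16 21 of 422 (4.98%) and 0. Chromosomes 6, 8 and 16 together held 151 of the 400 lower calls and 2 of the 159 higher ones, and 8.16% of their genes were called lower against 2.01% of those on all other chromosomes, chromosome 12 included. The median own-parent difference over all genes of these chromosomes lay between -0.28 and -0.52 in the 5 TKO add-back libraries and between -0.12 and 0.06 in the 3 DKO ones. On chromosome 12 it lay between -0.19 and -0.25 in the TKO add-backs. All 5 TKO add-back libraries share the 1 TKO library as their parent value. After the median of each chromosome in each library was subtracted, 307 genes were called, 130 higher and 177 lower, and 248 of them were among the 559. Of the lower calls on chromosome 8 11 of 76 were kept, on chromosome 6 5 of 54 and on chromosome 16 6 of 21. Of the named genes on these chromosomes, Dppa3 (-1.43), Hgsnat (-1.09), Snx25 (-0.86), Acsl1 (-0.79), Got1l1 (-1.86), Apela (-1.29), Vpreb1 (-1.59) and Gstk1 (-0.71) kept their calls at the log2 differences given. Ldhb, Plxnd1 and Neil3 did not, at -1.54, -1.38 and -0.77 (limma adjusted p = 0.0665, 0.0577 and 0.0857). What these chromosome-wide shifts contribute to single calls was not tested beyond this subtraction.

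**Figure D5:**
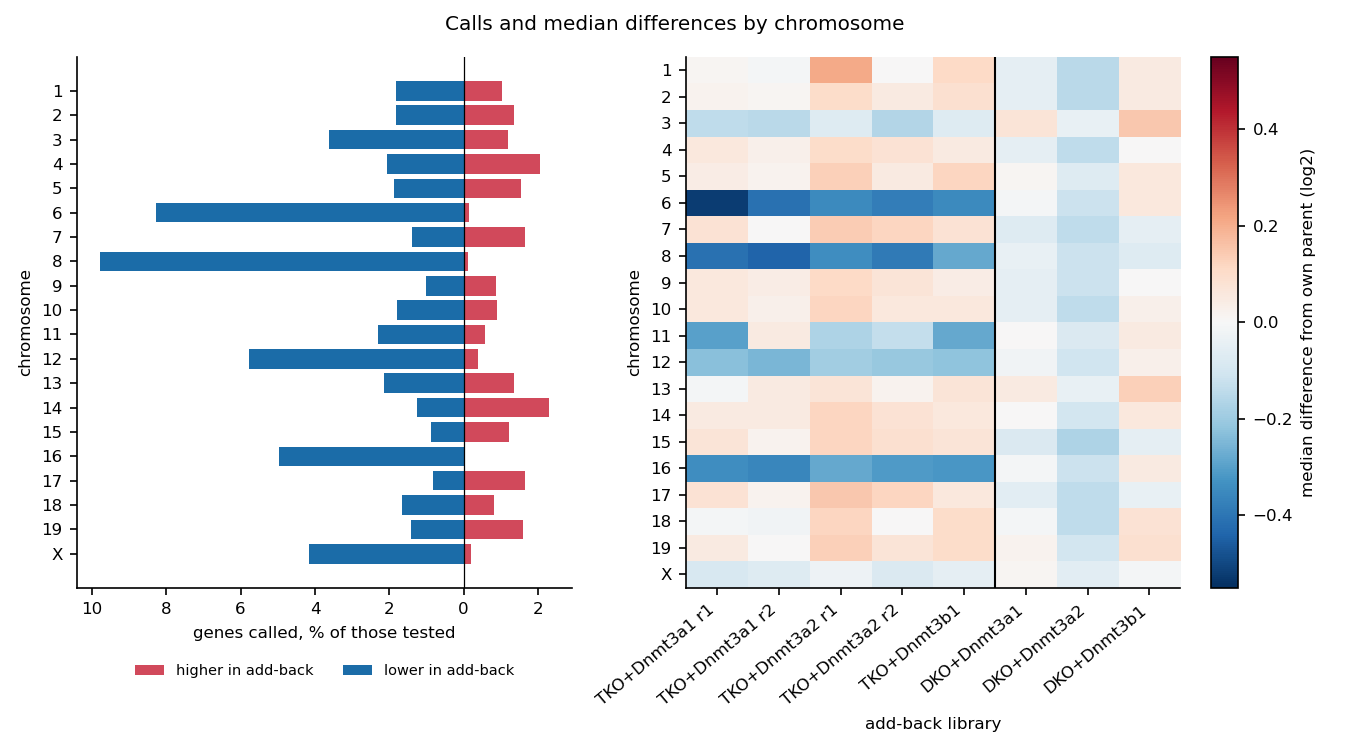
Left, percent of tested genes on each chromosome called higher (red, to the right) or lower (blue, to the left) in the add-back lines, with both sides counted from 0. Right, median log2 difference from the own parent over all tested genes of a chromosome in each add-back library. Chromosomes 6, 8 and 16 have blue cells in all 5 TKO add-back libraries, between -0.28 and -0.52, and pale cells in the 3 DKO ones. Chromosome 11 is uneven, at -0.3 and 0.05 in the 2 TKO+Dnmt3a1 libraries and at -0.28 in TKO+Dnmt3b1.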

How the data were processed

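RNA was extracted with RNeasy, and polyA RNA was sequenced from TruSeq v2 libraries, per the labels' protocols. Strand is not kept by such libraries, and reads of antisense or overlapping genes therefore cannot be separated. The submitters' processing notes name bcl2fastq 1.8.4, STAR 2.4.0 and the genome build mm9. The deposited values were RPKM per RefSeq gene, made by the authors, and the counting tool, gene lengths and treatment of duplicates are not given in the sources used here. RPKM sums were 380927 to 422189 per library, 3140 of 24016 genes were at 0 in every library, and the table held 0 other per-sample columns.

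Depth was estimated from 1362 transcripts of up to 400 nt, as the total at which the most values were whole reads of up to 5 within 0.05. At these totals 88.6% to 91.9% of such values were whole, and at other totals a median of 1.8% to 2.7%. RPKM depend on gene lengths, which the table does not hold, so that no count test was run.

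Unscaled log2(RPKM + 0.5) values of genes that reached 1 RPKM in any library entered a limma 3.58.1 linear model (empirical Bayes with a mean-variance trend, R 4.3.3) of 10 libraries with family and add-back (none, Dnmt3a1, Dnmt3a2, Dnmt3b1) as additive terms (5 residual and 3.79 prior degrees of freedom). The interaction added 1 term for any add-back in the TKO family (4 residual and 3.69 prior). The fit was tested on simulated data. Chromosomes came from a RefSeq table of another build (GRCm38) for 23960 genes, of which 23162 matched by accession and 798 by symbol or synonym, and were used as names alone. RefSeq promoter windows were matched by symbol.

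The members and lists were chosen with earlier results of these data known. Named genes were, of called genes with 1 sign in all 8 own-parent differences, an arm averaging at least 1 RPKM and a symbol other than a predicted, clone, microRNA, small nucleolar RNA or pseudogene one, those with the 12 largest differences and the 5 smallest p-values in each direction. Every called member of 20 lists, the 4 largest interactions in each direction, and Dnmt1, Dnmt3a, Dnmt3b and Dnmt3l were named as well. Alternatives covered the pseudocount, the filter, the scaling, the trend, the grouping of libraries and leaving out libraries. A comparison of promoter CpG content over all called genes was void, since 76.6% of tested genes had a promoter in the table, under the minimum of 80%.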

Additional observations from a re-analysis of the deposited data

Results flagged for a closer look

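Of 58 named genes, 3 had a library that stood apart from the other 7 in its difference from the own parent (Dixon's test), where chance alone marks about 1 in 20. Usp17lc was 3.89 above DKO in DKO+Dnmt3b1 (gap over range 0.565), and the other 7 libraries lay between 0.34 and 1.89 above their parents. Zscan4b was 3.88 above DKO in the same library (0.56), which was also the second highest in fibroblast and macrophage markers, whose part in this was not tested. Sohlh2 was -0.49 from TKO in the second TKO+Dnmt3a1 library (0.554), the smallest of its 8 falls.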

How the results depend on the processing

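The count of 559 called genes (159 higher, 400 lower) was 0 to 867 with each of the 10 libraries left out in turn (0 to 317 higher, 0 to 569 lower). It was 196 without a filter on low values (51 higher, 145 lower), 307 with chromosome medians subtracted (177 lower), 3 with each line counted once (1 higher, 2 lower), 3 without both Dnmt3b1 libraries (0 higher, 3 lower), and 0 in each direction with 9 group means, where 3868 genes were at an unadjusted limma p under 0.05. Without both Dnmt3b1 libraries and DKO+Dnmt3a2, an alternative chosen after seeing the data, it was 0 in each direction. Quantile normalization gave 258 higher genes and limma without a trend 93. A replicate block for the second libraries of TKO+Dnmt3a1 and TKO+Dnmt3a2 gave 1415 calls (530 higher, 885 lower), all 559 among them. The deviations of same-numbered libraries correlated at r = 0.09 over 2 pairs. With 2 pairs this cannot tell whether such libraries share anything beyond the number. Pseudocounts of 0.1 and 1, a filter on the mean and median ratio scaling gave 421, 607, 555 and 578 calls. The interaction had 0 calls in all but 1 alternative that could be fitted, the one without a filter, with 38, and could not be fitted without TKO or without DKO. No named called gene changed its sign, while 464 of their values under the 23 alternatives kept the call and 635 lost it. These genes were called on this difference, and those named for size or p-value also had to share its sign in all own-parent differences. The unchanged sign was thus largely set by the selection and is no support for the calls. Some genes named without being called, which were not selected in this way, did change sign. The difference of Dnmt1 ran from -0.32 without TKO to 0.43 without DKO and was -0.04 without TKO+Dnmt3b1. From without TKO to without DKO, that of Dnmt3b was 1.58 and -0.03, of Dnmt3l 0.57 and -0.17, of Spink3 2.45 and -0.43, of Gbx2 2.63 and -0.05, of Cox7b2 -2.59 and 1.27 and of Efhc2 -3.18 and 0.36. The causes were not tested. Each parent is 1 library, and values near 0 rest on few reads.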
